A study of Rattus norvegicus with 10 samples.

Results

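Liver RNA was examined for 10 genes of DNA replication licensing and nucleotide supply in rats exposed to total-body irradiation (TBI) with or without MASM, a derivative of the plant alkaloid matrine. The genes were named by symbol and found on the array through the RefSeq accession of each probe. Of the 10, 8 were matched, with 11 probes, among 13426 genes with a symbol and a value on every array. The matched genes were Mcm2, Mcm4, Mcm6, Mcm7, Cdc6, Rrm2, Tyms and Tk1. No probe was matched to Mcm3 or Mcm5, so only their promoters are described here and not their RNA. Mcm2, Mcm4 and Rrm2 had 2 probes each, and the brighter over all arrays stands for the gene unless the second probe is named.

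The rats were male Wistar rats, and the liver was taken 24 h after irradiation with a cobalt source. The control group (n = 3) received 0 Gy, the TBI group (n = 3) received 6.5 Gy by the labels, and the MASM + TBI group (n = 4) received 6.5 Gy after MASM at 30 mg/kg a day for 3 days, given into the stomach. The labels do not say whether control and TBI rats were given the vehicle, no group with MASM alone is analysed here, and the text of the study names a slightly lower dose than the labels. Each rat had 1 one-colour array, and both irradiated groups were compared with the same 3 control rats.

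Before a cell copies its DNA, the origin recognition complex, Cdc6 and Cdt1 load the helicase made of Mcm2 to Mcm7 onto replication origins, a step called licensing. Ribonucleotide reductase, whose small subunit is Rrm2, makes deoxyribonucleotides, while thymidylate synthase (Tyms) makes thymidylate anew and thymidine kinase (Tk1) salvages it from thymidine. Many of these genes are transcribed towards S phase under E2F factors, and most hepatocytes of the adult liver are outside the cell cycle.

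Promoters of 7 of the 10 genes were held by the RefSeq table (build GRCr8), each of 300 bases with 250 before and 50 after the start of the gene. Both strands were searched for the E2F letters TTTCCCGC or TTTGGCGC, which were found in 5 of the 7 (71.4%) and in 485 of all 33469 promoters of this length (1.45%). The first base of the match lay 233 bases before the start in Mcm7, 139 in Mcm6, 37 in Tyms and 6 in Mcm3, and Mcm5 had matches at 209 and 8 bases. Neither form occurred in the windows of Mcm2 and Tk1. The near form TTTCGCGC was not part of the search and stands, for example, in the windows of Mcm2 and Mcm7. The counts therefore refer to the searched forms only and do not show that a window lacks an E2F site. The letters CCAAT, those read by NF-Y, were in 57.1% of the 7 and 37.5% of all promoters, GGGCGG, an Sp1 box, in 71.4% and 33.1%, and TTTGAA, a CHR element, in 14.3% and 18.3%. The promoters of Mcm6, Mcm7 and Tyms are shown because all 3 hold an E2F match, while the measured signal of Tyms moved in the opposite direction to that of Mcm6. They are written on the strand of the gene, with the E2F letters or their reverse complement in capitals, at chr13:42404303-42404602 (minus strand), chr12:22163129-22163428 (minus strand) and chr9:120776034-120776333 (minus strand) in that order.
Mcm6: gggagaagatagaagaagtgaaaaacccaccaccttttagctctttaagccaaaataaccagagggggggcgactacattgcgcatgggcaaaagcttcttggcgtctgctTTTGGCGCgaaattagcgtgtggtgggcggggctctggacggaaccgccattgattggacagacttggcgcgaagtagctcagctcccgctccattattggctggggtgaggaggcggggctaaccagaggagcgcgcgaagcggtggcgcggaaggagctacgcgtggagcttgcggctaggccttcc
Mcm7: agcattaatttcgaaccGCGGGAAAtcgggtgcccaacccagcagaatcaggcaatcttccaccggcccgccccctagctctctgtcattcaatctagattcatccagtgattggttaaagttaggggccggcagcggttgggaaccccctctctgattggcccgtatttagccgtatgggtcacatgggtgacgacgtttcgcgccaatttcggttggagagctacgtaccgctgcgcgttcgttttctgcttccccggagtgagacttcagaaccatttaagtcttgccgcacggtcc
Tyms: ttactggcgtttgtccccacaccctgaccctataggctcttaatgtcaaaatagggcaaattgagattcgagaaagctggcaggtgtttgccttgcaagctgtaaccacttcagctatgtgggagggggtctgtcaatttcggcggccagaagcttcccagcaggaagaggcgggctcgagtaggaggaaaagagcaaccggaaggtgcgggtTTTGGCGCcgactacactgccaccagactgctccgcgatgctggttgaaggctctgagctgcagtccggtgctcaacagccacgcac

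The match in Mcm6 and the match in Tyms had the same letters, TTTGGCGC, and that in Mcm7 was the reverse complement of TTTCCCGC. These matches describe the letters of the windows and are not evidence of binding.

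The values are log2 signals after background subtraction by the scanner software and quantile normalization between the 10 arrays. Signals of different probes are not compared, since a probe's brightness depends on its own sequence. A probe was counted as called at an adjusted p under 0.05 in limma, with Benjamini-Hochberg adjustment over 40945 probes, together with a fold change of at least 1.5. The share of non-control spots that were well above background ranged over 57.2% to 59.9% in control rats, 64.1% to 70.1% in TBI rats and 56.2% to 60.2% in MASM + TBI rats. The control rats and MASM + TBI rat 3 shared slide 1, the TBI rats were slide 2, and MASM + TBI rats 1, 2 and 4 were slide 3. TBI therefore cannot be told apart from slide 2. With 3 or 4 rats a group, the number of arrays limits the precision.

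Mcm2, Mcm4 and Mcm6 of the helicase and Tk1 of the salvage route fell in liver after TBI, by 1.81-fold to 5.32-fold, while Tyms rose by 1.91-fold. In MASM + TBI rats Mcm2, Mcm6 and Tk1 fell and Tyms rose against the same control rats. Of the 8 genes, 4 were called lower after TBI, where 2.74% of all genes were, and 1 was called higher, where 2.44% were. For MASM + TBI the counts were 3 lower against 1.97% of all genes and 1 higher against 0.931%. The median log2 fold change of the 8 genes was -0.89 after TBI and -0.76 after MASM + TBI, and that of all genes was -0.01 and -0.00. The number called after TBI was 2 without control rat 2 and 3 without control rat 3, and the number after MASM + TBI was 2 without control rat 2. With a normexp background correction, which adds an offset of 50, all folds of the 8 genes were under 1.5 and 0 were called. This offset by itself shrinks the folds of dim probes, so the fold threshold is harder to pass in that setting. There, 6 and 5 of the genes passed the limma adjusted p threshold after TBI and after MASM + TBI. By the methods' t-test 0 passed after adjustment.

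**Figure D1:**
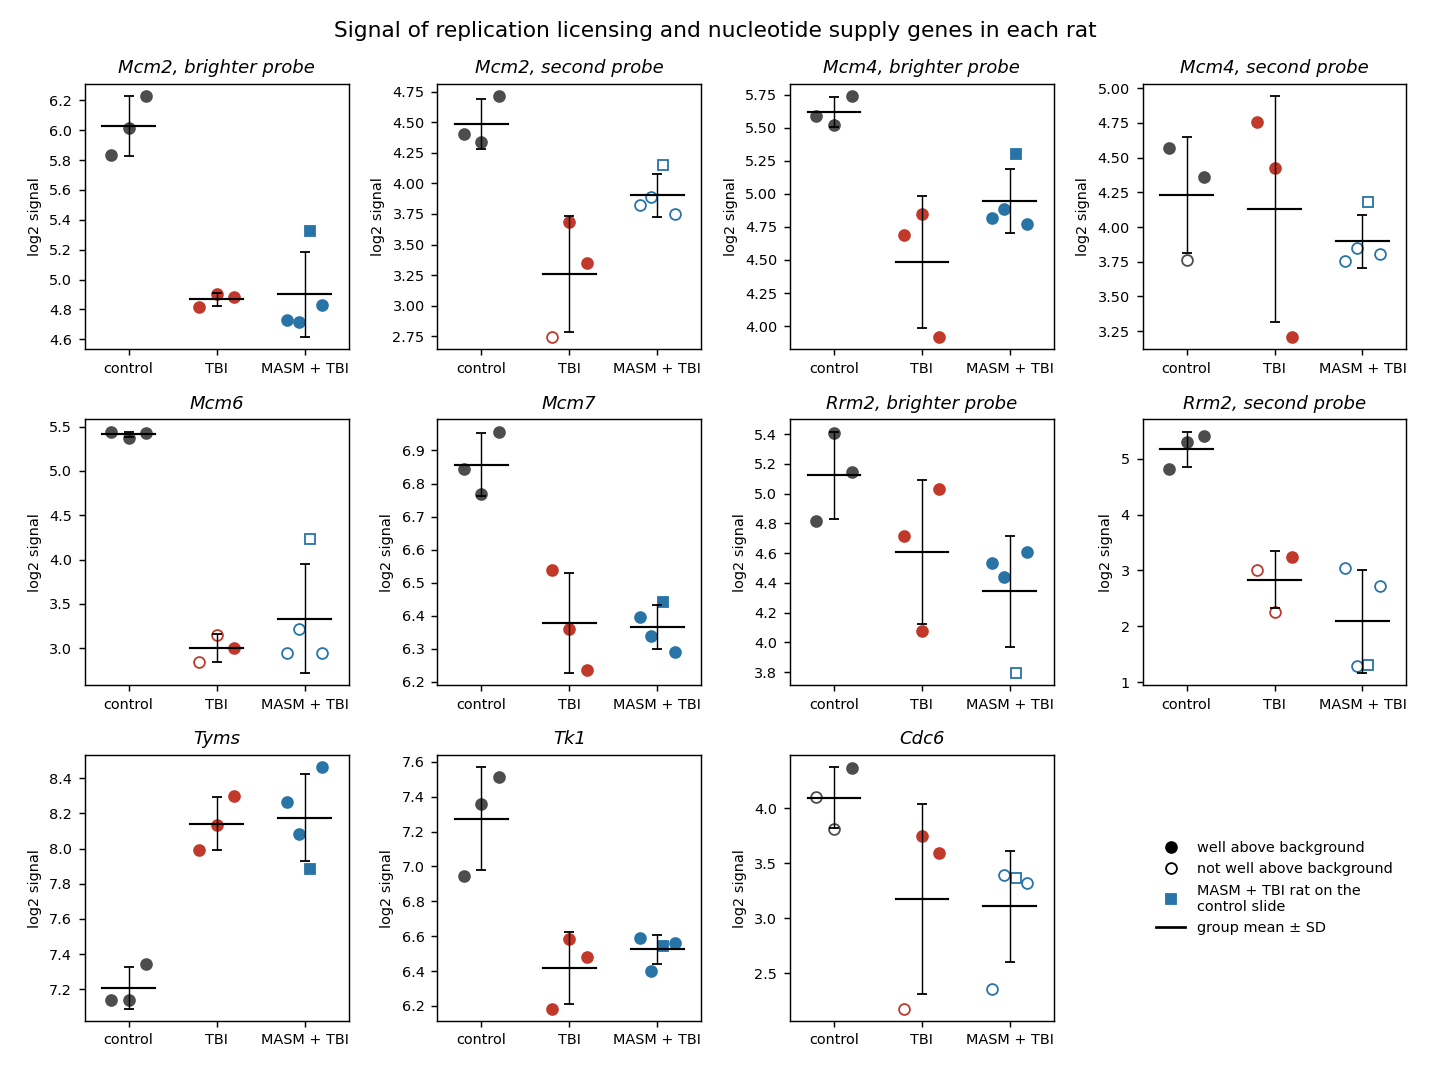
Log2 signal (vertical axis, a scale of its own in each panel that does not start at 0) of the 11 probes in every rat, by group (horizontal axis), where filled points were well above background, open points were not, squares are the MASM + TBI rat on the control slide, and lines are the group mean with SD. All irradiated rats lie below the control rats for Mcm6 and Mcm7 and above them for Tyms.

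Mcm2, a subunit of the helicase, had log2 signals of 5.83, 6.02 and 6.23 in the control rats, 4.82, 4.91 and 4.88 in the TBI rats and 4.73, 4.72, 5.32 and 4.83 in the MASM + TBI rats. Every irradiated rat was below every control rat, and MASM + TBI rat 3 was the highest irradiated rat. The group means were 6.03 ± 0.20 (SD, n = 3), 4.87 ± 0.05 (SD, n = 3) and 4.90 ± 0.29 (SD, n = 4). Mcm2 fell by 1.16 on the log2 scale after TBI (SE 0.17, limma adjusted p = 0.00940, 2.23-fold). After MASM + TBI it fell by 1.13 (SE 0.16, limma adjusted p = 0.0106, 2.18-fold). These calls held whichever rat was left out. The second Mcm2 probe gave 4.41, 4.34 and 4.72 in control rats, 2.74, 3.68 and 3.35 in TBI rats and 3.82, 3.89, 4.15 and 3.75 in MASM + TBI rats. It was below every control rat in both irradiated groups, but only its fall after TBI was called (limma log2 fold change -1.23, adjusted p = 0.0227, against -0.59, adjusted p = 0.209, after MASM + TBI). No MASM + TBI array was well above background for it.

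Mcm4, another subunit, had 5.59, 5.52 and 5.74 in control rats, 4.69, 4.85 and 3.92 in TBI rats and 4.82, 4.88, 5.31 and 4.78 in MASM + TBI rats. The irradiated rats did not overlap the control rats, and TBI rat 3 was far below the other TBI rats. Mcm4 fell by 1.13 after TBI (SE 0.24, limma adjusted p = 0.0356, 2.19-fold), and the log2 fold change after MASM + TBI was -0.67 (SE 0.23, limma adjusted p = 0.173). The call after TBI was lost without control rat 1, 2 or 3, TBI rat 1, or MASM + TBI rat 1, 2 or 4, with adjusted p from 0.0512 to 0.113. Without TBI rat 3, Mcm4 was called after MASM + TBI (limma adjusted p = 0.0497). The second Mcm4 probe was at 4.57, 3.77 and 4.36 in control rats, 4.75, 4.43 and 3.21 in TBI rats and 3.75, 3.85, 4.18 and 3.81 in MASM + TBI rats. Its groups overlapped, and its log2 fold changes of -0.10 and -0.33 were not called (limma adjusted p = 0.900 and 0.731), so the 2 probes of Mcm4 disagree after TBI.

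Mcm6 had the largest log2 fold change of the genes' brighter probes after TBI. It was at 5.43, 5.38 and 5.43 in control rats, 2.85, 3.15 and 3.00 in TBI rats and 2.94, 3.22, 4.23 and 2.94 in MASM + TBI rats. The control rats lay close together, the irradiated rats were far below them, and MASM + TBI rat 3 was again the highest of the irradiated rats. Mcm6 fell by 2.41 after TBI (SE 0.31, limma adjusted p = 0.00560, 5.32-fold), where 1 of 3 TBI arrays was well above background. No MASM + TBI array was, so the fall there (limma log2 fold change -2.08, SE 0.29, adjusted p = 0.00981) is at least 2.90-fold. For this bound, the signal on each MASM + TBI array was taken as the larger of the probe's own and the dimmest that still counted as well above background there, and the mean of these was set against the control mean. Both Mcm6 calls held whichever rat was left out.

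Mcm7 had 6.85, 6.77 and 6.96 in control rats, 6.54, 6.36 and 6.24 in TBI rats and 6.40, 6.34, 6.44 and 6.29 in MASM + TBI rats. All arrays were well above background, and the irradiated rats were below every control rat. Its log2 fold changes of -0.48 (SE 0.10, limma adjusted p = 0.0300, 1.39-fold) and -0.49 (SE 0.09, limma adjusted p = 0.0301, 1.40-fold) passed the p threshold but not the fold threshold.

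Cdc6, which helps to load the helicase, was dim. It was at 4.10, 3.81 and 4.37 in control rats, 2.17, 3.75 and 3.60 in TBI rats and 2.35, 3.40, 3.36 and 3.32 in MASM + TBI rats, and was well above background on 1 control array, 2 TBI arrays and 0 MASM + TBI arrays. The irradiated rats were below every control rat, with TBI rat 1 and MASM + TBI rat 1 far below the others of their groups. The log2 fold changes of -0.92 (SE 0.44, limma adjusted p = 0.251) and -0.99 (SE 0.41, limma adjusted p = 0.270) were not called.

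Among the genes of nucleotide supply, Rrm2 gave different results with its 2 probes. The brighter probe was at 4.82, 5.41 and 5.15 in control rats, 4.72, 4.08 and 5.03 in TBI rats and 4.53, 4.44, 3.79 and 4.61 in MASM + TBI rats. TBI rats overlapped control rats, MASM + TBI rats did not, and neither log2 fold change was called (-0.51, SE 0.30, limma adjusted p = 0.336, and -0.78, SE 0.28, limma adjusted p = 0.192). The second probe was at 4.81, 5.30 and 5.41 in control rats, 3.01, 2.26 and 3.23 in TBI rats and 3.04, 1.28, 1.31 and 2.73 in MASM + TBI rats. It fell by 2.34 after TBI (SE 0.51, limma adjusted p = 0.0381, 5.05-fold, with 1 of 3 TBI arrays well above background). After MASM + TBI its log2 fold change was -3.08 (SE 0.48, limma adjusted p = 0.0156), at least 2.51-fold lower, with no array well above background. If a gene is counted as called when any of its probes is, 5 genes were lower and 1 higher after TBI, against 3.1% and 2.73% of all genes counted this way, and 4 lower and 1 higher after MASM + TBI, against 2.15% and 1.07%.

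Tyms was the one gene of the 8 that rose. It was at 7.14, 7.14 and 7.34 in control rats, 7.99, 8.14 and 8.30 in TBI rats and 8.27, 8.08, 7.89 and 8.46 in MASM + TBI rats, all well above background. Every irradiated rat was above every control rat. Tyms rose by 0.93 on the log2 scale after TBI (SE 0.15, limma adjusted p = 0.0142, 1.91-fold) and by 0.97 after MASM + TBI (SE 0.14, limma adjusted p = 0.0130, 1.95-fold). Both calls were lost without control rat 2, narrowly (adjusted p = 0.0504 and 0.0586).

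Tk1 was at 6.94, 7.36 and 7.52 in control rats, 6.18, 6.58 and 6.48 in TBI rats and 6.59, 6.40, 6.55 and 6.56 in MASM + TBI rats. The irradiated rats were below every control rat, and control rat 1 was the lowest control. Tk1 fell by 0.86 after TBI (SE 0.16, limma adjusted p = 0.0226, 1.81-fold) and by 0.75 after MASM + TBI (SE 0.15, limma adjusted p = 0.0387, 1.68-fold). The first call was lost without control rat 2 (adjusted p = 0.0694) or 3 (0.0710). The second was lost without control rat 2 or 3 or any 1 of the MASM + TBI rats, with adjusted p from 0.0792 to 0.131.

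**Figure D2:**
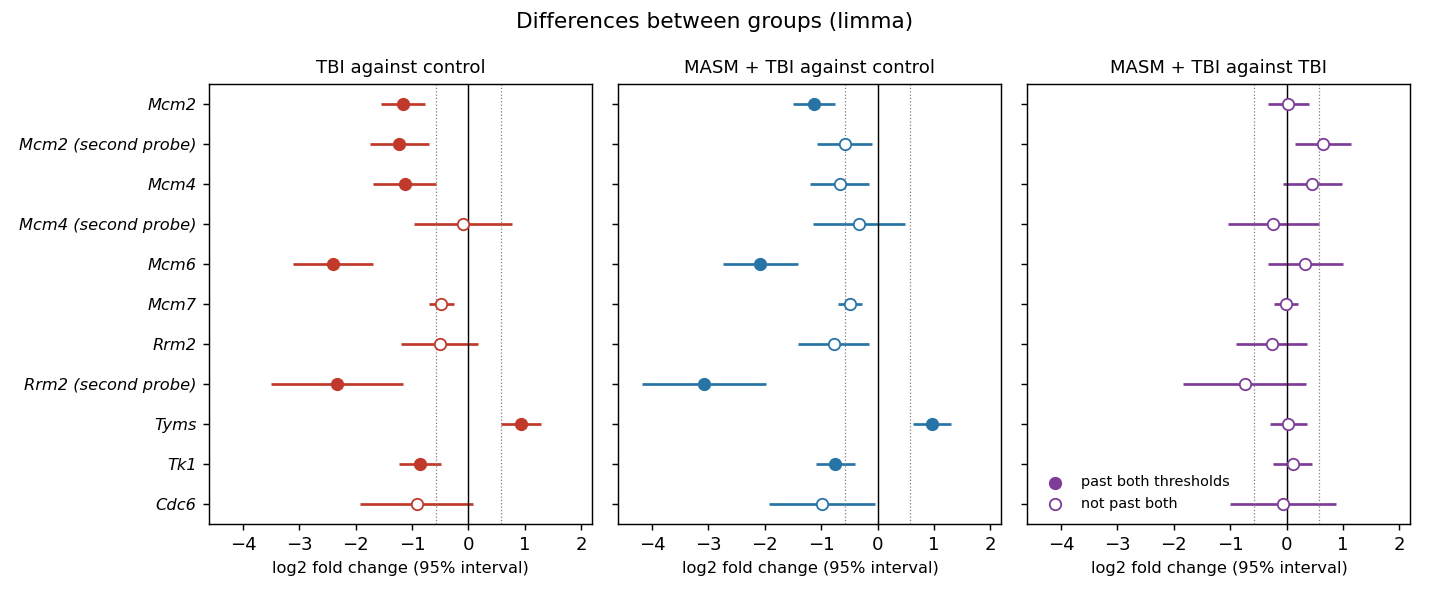
Log2 fold change (horizontal axis) of each probe (vertical axis) in the 3 comparisons, with 95% intervals from limma. Filled points passed the p and the fold threshold, and dotted lines mark a fold of 1.5. The filled points lie left of 0 except Tyms, and none is filled for MASM + TBI against TBI.

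Counted by overlap, 6 of the 8 genes were lower in every TBI rat than in every control rat, where 17.5% of all genes were, and 1 was higher, where 13% were. For MASM + TBI, 7 were lower against 12.1% of all genes and 1 was higher against 10.2%. By the second threshold, an unadjusted p under 0.05 with a fold of at least 1.5, 4 were lower and 1 higher after TBI against 5.59% and 7.54% of all genes, and 6 were lower and 1 higher after MASM + TBI against 5.68% and 3.5%.

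MASM + TBI rats were compared with TBI rats to ask whether MASM given before irradiation changed these levels. No gene of the 8 was called in limma, where 0.864% of all genes were, and 0 had an unadjusted p under 0.05 by limma or by the methods' t-test, where 7.82% of all genes passed the second threshold in limma. The values of the groups overlapped for all 8 genes by the brightest probe, while 7.49% of all genes were lower and 9.75% higher without overlap. The intervals bound the differences: the log2 fold change was 0.03 for Mcm2 (95% interval -0.33 to 0.40), 0.46 for Mcm4 (-0.06 to 0.98), 0.33 for Mcm6 (-0.33 to 1.00), -0.01 for Mcm7 (-0.22 to 0.20) and -0.06 for Cdc6 (-1.01 to 0.88). It was -0.27 for Rrm2 (-0.90 to 0.37), 0.03 for Tyms (-0.30 to 0.36) and 0.11 for Tk1 (-0.23 to 0.45). The Mcm7 interval was the narrowest of these and that of Cdc6 the widest. No MASM + TBI array was well above background for Mcm6 or Cdc6, so the intervals of these genes rest on signals near background. The second Mcm2 probe was higher in every MASM + TBI rat than in every TBI rat by 0.64 (interval 0.15 to 1.14), as were 12.7% of all probes, but this was not called (limma adjusted p = 0.183), and no MASM + TBI array was well above background.

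MASM + TBI rat 3, on the slide of the control rats, allowed a comparison within 1 slide, with 1 irradiated rat and so without a test. It differed from the mean of the control rats by -0.70 for Mcm2, -0.31 for Mcm4, -1.18 for Mcm6, -0.41 for Mcm7, -1.33 for Rrm2, -0.73 for Tk1, -0.73 for Cdc6 and 0.68 for Tyms. The directions were those of the group means, lower for 7 of 8 genes. The MASM + TBI rats on slide 3 differed by -1.27 for Mcm2, -0.79 for Mcm4, -2.38 for Mcm6, -0.52 for Mcm7 and 1.06 for Tyms, each farther from the control mean than rat 3 was. For Rrm2 rat 3 was the farther (-1.33 against -0.60). Rat 3 was not well above background for Rrm2, Mcm6 or Cdc6, so the sizes of its differences there are uncertain. Slide and rat cannot be told apart here. With the slide as a fixed block only Mcm6 was called after MASM + TBI (limma adjusted p = 0.0310), while Mcm2 (adjusted p = 0.160), Tk1 (0.260) and Tyms (0.183) were not. With the slide as a random block 3 genes were called lower and 1 higher, the same counts as without a block.

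**Figure D3:**
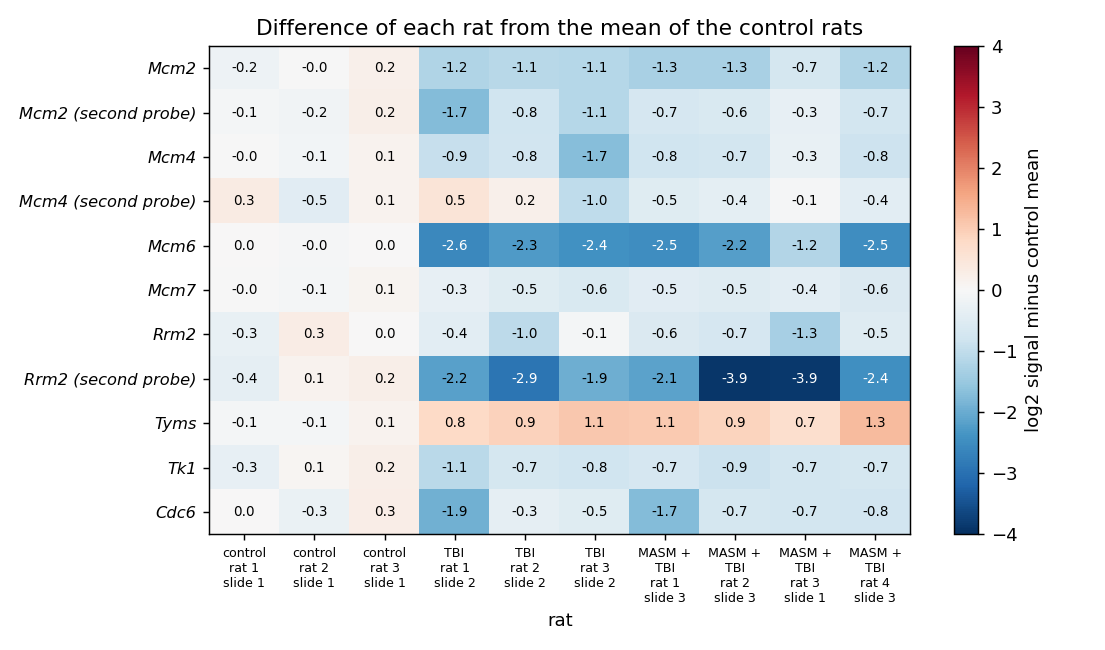
Difference of each rat from the mean of the control rats (log2 signal, colour and printed value) for each probe (rows) and rat with its slide (columns). Tyms is positive and Mcm6 negative in all 7 irradiated rats, and MASM + TBI rat 3 is the highest MASM + TBI rat for 4 of the 8 brighter probes.

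Other genes of the same pathway were followed in lists by role. Of 26 genes of licensing and origin firing, 20 had a probe, and 5 were called lower after TBI and 6 after MASM + TBI, with none higher and medians of -0.62 and -0.42. Of all genes 2.74% and 1.97% were called lower. Cdc45, which joins the helicase when origins fire, fell by 1.82 and 1.54 on the log2 scale (limma adjusted p = 0.000461 and 0.000793), and both calls held whichever rat was left out. Recql4, a helicase that acts in origin firing, fell by 1.30 and 1.11 (limma adjusted p = 0.0110 and 0.0215), and Timeless, which protects the fork, by 0.93 and 0.65 (limma adjusted p = 0.00631 and 0.0270). Cdt1, the partner of Cdc6, had a log2 fold change of -1.81 after TBI that was not called (limma adjusted p = 0.0862). After MASM + TBI its log2 fold change was -2.39 (limma adjusted p = 0.0430), at least 1.58-fold lower, with no array well above background. Gmnn, the inhibitor of Cdt1, was at -0.90 (not called, adjusted p = 0.0609) and fell by 1.12 (limma adjusted p = 0.0349). Gins3, a subunit of the GINS complex that joins the helicase, was at -1.49 after TBI (not called, limma adjusted p = 0.0593). After MASM + TBI its log2 fold change was -1.70 (limma adjusted p = 0.0445), at least 2.07-fold lower, with no array well above background. After TBI, Cdt1 was called without TBI rat 1, Gmnn without control rat 1 and Gins3 without MASM + TBI rat 1. After MASM + TBI, the call of Cdt1 was lost without any 1 rat other than TBI rat 1 and MASM + TBI rat 3, that of Gins3 without any 1 rat other than MASM + TBI rat 4, and that of Gmnn without any 1 rat other than control rat 1 and TBI rats 1 and 3. The Recql4 call there was lost without control rat 1, 2 or 3 or MASM + TBI rat 1, 2 or 3, and the Timeless call without control rat 1, 2 or 3 or MASM + TBI rat 1 or 4. The further genes called lower were Mcm8 and Gins2 after TBI, both well above background on 1 of 3 control arrays. The list count was 1 with normexp in both comparisons and, after TBI, 3 without TBI rat 2. After TBI it was also 10 with the slide as a random block, 8 with 75th percentile scaling, 3 with only the 2 groups compared, 2 with rats 1 to 3 blocked by replicate number and 0 by the methods' t-test. These settings gave 8, 5, 3, 1 and 0 after MASM + TBI, and the slide as a fixed block gave 2. With 1 rat left out, the count after MASM + TBI was 1 without control rat 2, control rat 3 or MASM + TBI rat 1, 2 without control rat 1 or MASM + TBI rat 2, and 3 without TBI rat 2 or MASM + TBI rat 4.

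Of 25 genes of the replication fork, 21 had a probe, and 5 were called lower and none higher in each comparison with control (medians -0.33 and -0.36). Of all genes 2.74% and 1.97% were called lower. The fork count after TBI was 3 with normexp and 0 by the methods' t-test. After MASM + TBI it was 1 with the slide as a fixed block, 1 with rats 1 to 3 blocked by replicate number and 0 by the methods' t-test. Chaf1b, of the complex that places histones on new DNA, fell by 2.02 and 1.73 (limma adjusted p = 0.00253 and 0.00437). Pold1, the catalytic subunit of DNA polymerase delta, fell by 1.01 and 1.07, and Lig1, which joins DNA fragments, by 0.78 and 1.00 (limma adjusted p = 0.0140 and 0.0110, 0.00664 and 0.00226). Rfc3, of the clamp loader, fell by 0.81 and 0.61 (limma adjusted p = 0.00847 and 0.0263). The Rfc3 call after MASM + TBI was lost without control rat 1 or 3 or MASM + TBI rat 1, 3 or 4. Both Pold1 calls were lost without control rat 3 (adjusted p = 0.0539 and 0.0528). Pcna, the sliding clamp, was at -0.44 and -0.39 and not called (limma adjusted p = 0.0575 and 0.0894). The fifth gene called was Prim1 after TBI and Rnaseh2a after MASM + TBI.

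Of 33 further genes of nucleotide supply, 29 had a probe, and 2 were called lower after TBI and 1 after MASM + TBI (medians -0.13 and 0.07). Of all genes 2.74% and 1.97% were called lower. The nucleotide supply count after TBI was 0 with normexp, with only the 2 groups compared and by the methods' t-test. After MASM + TBI it was 0 with normexp, with the slide as a fixed block and by the methods' t-test. Rrm1, the large subunit of ribonucleotide reductase, fell by 0.64 after TBI (limma adjusted p = 0.0403) and was at -0.37 after MASM + TBI (limma adjusted p = 0.201). The fall was not called without control rat 1, 2 or 3, TBI rat 1 or 2, or MASM + TBI rat 3 or 4. Cda, the other gene called, was well above background on no array and is given no fold. The count after MASM + TBI was 2 without MASM + TBI rat 2. Rrm2b, a second small subunit of the reductase, was at -0.07 and -0.00, and Dut, which removes dUTP, at 0.05 and 0.28, neither of them called (lowest limma adjusted p = 0.169). Of the 14 genes of the E2F and pocket protein list with Cdkn1a, 9 had a probe. E2f1, an activating E2F factor, fell by 2.36 and 2.08 (limma adjusted p = 0.00139 and 0.00218), and Cdkn1a, the p53 target that inhibits cyclin-dependent kinases, rose by 5.36 and 4.80 (limma adjusted p = 0.000130 and 0.000146). E2f1 and Cdkn1a were called in both comparisons whichever rat was left out, and the list medians were 0.04 and -0.10. Between MASM + TBI and TBI rats, 0 genes of these 4 lists were called in limma, where 0.864% of all genes were. In the licensing list 1 gene, higher, had an unadjusted p under 0.05 with a fold of at least 1.5, where 7.82% of all genes did. Without overlap, 7 of 29 nucleotide supply genes were higher and none lower, against 9.75% and 7.49% of all genes. The counts were 2 and none of 20 in the licensing list, 2 and 1 of 21 in the fork list, and none and 1 of 9 in the E2F list.

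**Figure D4:**
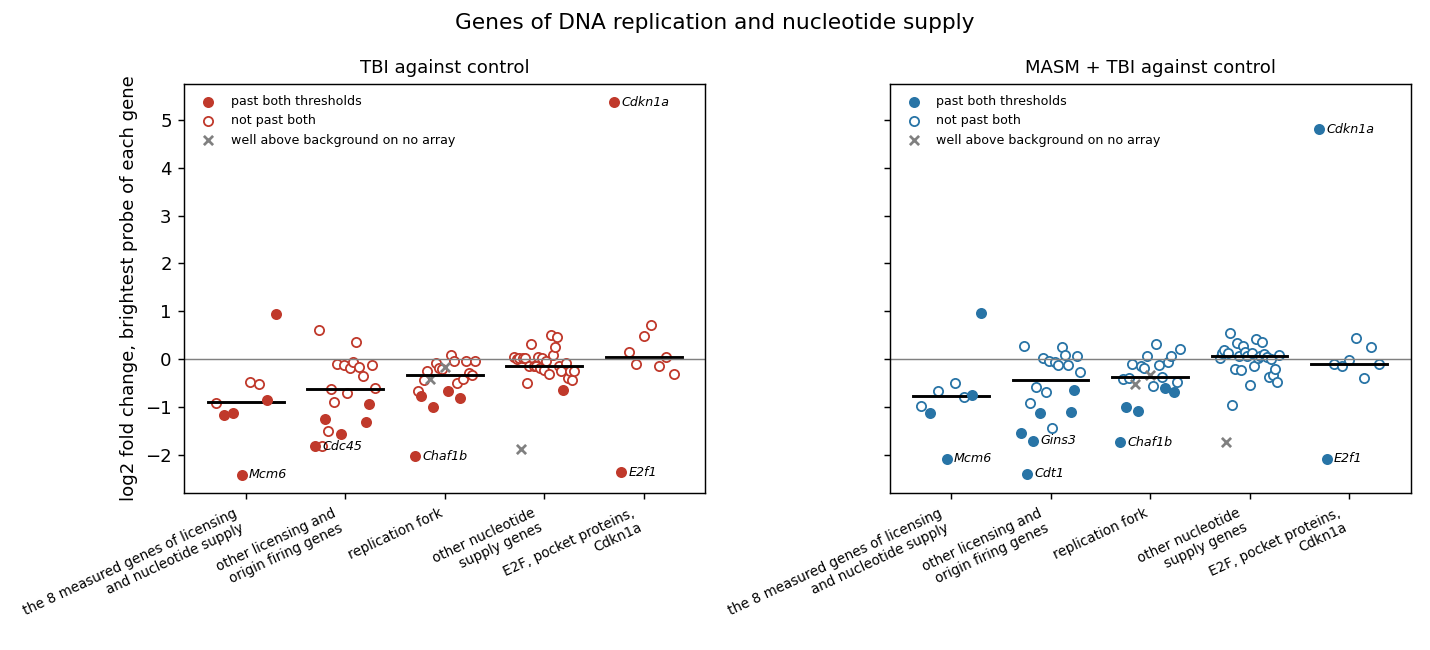
Log2 fold change (vertical axis) of each gene by its brightest probe, by list (horizontal axis), after TBI and after MASM + TBI, with lines at the list medians. Filled points passed both thresholds, crosses mark genes well above background on no array. Mcm6, Cdc45, Chaf1b and E2f1 lie far below 0 and Cdkn1a far above it after TBI.

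Markers of other cells were read beside these genes. The liver held its hepatocyte markers, with 6 of 6 well above background on all control arrays, 0 of 6 called, and medians of -0.05 after TBI and 0.04 after MASM + TBI. Of 4 proliferation genes with a probe (Cdk1, Ccnb1, Ccna2 and Bub1), 4 were called lower in both comparisons, among them Cdk1, the kinase of mitotic entry, which fell by 3.50 after TBI and fell by 3.30 after MASM + TBI on the log2 scale. With the slide as a fixed block, 0 of the 4 and 0 of the B cell markers were called after MASM + TBI in limma. With the slide as a random block, 4 of the 4 and 1 of the B cell markers were called lower. The lymphocyte markers fell in part, with 3 of 6 T cell and 1 of 4 B cell markers called lower after TBI, and 2 of 6 and 1 of 4 after MASM + TBI. Among all genes 2.74% and 1.97% were called lower. Cd79b, a B cell receptor chain, had log2 fold changes of -2.90 after TBI and -3.01 after MASM + TBI, with no irradiated array well above background. It was thus at least 4.98-fold and at least 2.55-fold lower. These bounds depend on the dimmest signal counted as well above background on each array, and do not rank the 2 falls. Of 5 mast cell markers 2 were called lower in each comparison, Mcpt1 and Kit after TBI and Mcpt1 and Cpa3 after MASM + TBI. Kit was well above background on no array. Mcpt1, a mast cell protease, fell by 4.40 after TBI, where 1 TBI array was well above background. After MASM + TBI its log2 fold change was -4.38, at least 7.01-fold lower, with no array well above background. None of 6 Kupffer cell, 5 erythroid or 5 neutrophil markers was called in either. Between MASM + TBI and TBI rats, only Cpa3 of all these markers was called, and it was lower (limma log2 fold change -1.54, adjusted p = 0.0350). No MASM + TBI array was well above background for it, and it was not called with only the 2 groups compared. All 6 Kupffer cell markers were lower there, with a median of -0.70 and none called. The part of these cell types in the values of the replication genes was not tested, and in bulk liver fewer cells of a type and less RNA per cell cannot be told apart.

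The mean profile of the 8 genes over the 10 rats, each gene centred on its own mean, was nearest to those of Cdkn2d, Pdk2, Pard6a, Cyp2t1 and Mov10 among 8657 genes outside these and the 4 pathway lists that were well above background on all control arrays, with root mean square distances of 0.113, 0.121, 0.122, 0.123 and 0.123 on the log2 scale. Of the 8 genes themselves, Tk1 was nearest to it (0.124) and Tyms farthest (0.813).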

How the data were processed

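Liver RNA of 10 rats was labelled with Cy3 and hybridised to 1 array each, and the slide of each array was read from the file headers. The authors deposited spot intensities from Feature Extraction 10.7.3.1 (per the file headers), on a linear scale, background-subtracted and with no normalization across arrays. The processed table they deposited had identical intensities.

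Control spots (1639 per array) and outlier spots (76 to 112) were left out, 0 spots were saturated, and log2 intensities were quantile normalized, as in the methods of the study, and averaged per probe. Of 41012 probes, 40945 had a value on every array, and 16968 obtained a symbol through their accession and the RefSeq gene table (GRCr8). A mean per group was fitted to all 10 arrays in limma 3.58.1 (R 4.3.3, data.table version 1.17.8, jsonlite 2.0.0), with Benjamini-Hochberg adjustment over all probes, after tests on simulated data. Promoters and plots were handled in Python 3.11.15 with pandas 2.3.3 and matplotlib 3.10.9.

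The 10 genes and all gene lists were chosen with earlier results of these data known. The named genes were these 10 by the brightest probe, 10 further genes given by symbol (Cdt1, Gmnn, Cdc45, Pcna, Rrm1, Rrm2b, Dut, E2f1 and Cdkn1a, with 1 not reported here), and up to 4 more per list with the largest called change whose brighter group was well above background throughout. Others named from small counts, from the marker lists or for a profile near the mean of the 8 genes are given for that reason. Alternatives were 75th percentile scaling, normexp with an offset of 50 on median signals, the deposited table, removal of dim probes, the methods' t-test, a fit of only the groups compared, the slide as a random or fixed block, a replicate block of rats 1 to 3 in each group, another probe of the gene, and each rat left out. Counting a gene by any of its probes was added after seeing the data.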

Additional observations from a re-analysis of the deposited data

Results flagged for a closer look

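Of 21 profiles of 4 MASM + TBI rats, 2 held a rat whose gap to its nearest neighbour exceeded the critical share of the group's range in Dixon's test, as chance does in about 5% of groups. Cdc6 was at 2.35 in MASM + TBI rat 1 and at 3.32 in the nearest rat, a ratio of 0.927, and no array of this group was well above background for it. Gmnn was at 4.43 in MASM + TBI rat 4 and at 4.83 in the nearest rat, a ratio of 0.960.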

How the results depend on the processing

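After TBI, 5 of the 8 genes were called. The number was 0 with normexp, 0 by the methods' t-test, 3 with only the 2 groups compared, 3 with the replicate block, and 2 to 5 with 1 rat left out. After MASM + TBI it was 4, with 0 under normexp, 0 by the methods' t-test, 1 with the slide as a fixed block, 0 with the replicate block, and 2 to 5 with 1 rat left out. The replicate block was fitted to rats 1 to 3 of each group. Here and in the counts below it therefore changes 2 things, the block and the loss of MASM + TBI rat 4. By the methods' t-test without adjustment, 3 genes were lower and 1 higher after TBI, and 6 lower and 1 higher after MASM + TBI. Of all probes, 1842 were called after TBI, against 6950 with 75th percentile scaling, 553 with normexp, 10 by the methods' t-test, 943 with only the 2 groups, 4078 with the slide as a random block, 1026 with the replicate block and 914 to 2312 with 1 rat left out. After MASM + TBI 963 were called, against 455 with normexp, 28 by the methods' t-test, 1805 and 525 with the slide as a random and as a fixed block, 298 with the replicate block and 461 to 1044 with 1 rat left out. Between the irradiated groups 570 were called, against 5137 with 75th percentile scaling, 79 with normexp, 3 by the methods' t-test, 255 with only the 2 groups, 1401 with the slide as a random block, 22 with the replicate block and 240 to 1084 with 1 rat left out. The share of called probes that were lower moved from 55.4% to 76.8% after TBI and from 44.9% to 17.5% between the irradiated groups with 75th percentile scaling, and from 44.9% to 13.9% with normexp. Directions of the 8 genes against control did not change under any alternative run. Between the irradiated groups, where none was called, signs turned for Mcm2 (-0.078 with 75th percentile scaling, -0.11 to 0.095 with 1 rat left out, lowest without MASM + TBI rat 3), Mcm4 (-0.23 by the other probe), Cdc6 (-0.56 to 0.22 with 1 rat left out, above 0 without TBI rat 2 or 3 or MASM + TBI rat 1), Mcm7 (0.014 with the replicate block, -0.082 to 0.068 with 1 rat left out, above 0 without MASM + TBI rat 4 or TBI rat 1), Tyms (-0.063 with the replicate block, -0.063 to 0.13 with 1 rat left out, below 0 without MASM + TBI rat 4 or TBI rat 1) and Tk1 (-0.0085 to 0.19 with 1 rat left out, below 0 without TBI rat 1). The cause was not tested. The replicate block leaves out MASM + TBI rat 4, and its Tyms value of -0.063 is the same as that without this rat. The replicate numbers did not pair the rats, since deviations of same-numbered rats correlated at -0.13 to 0.17 and 1 of 9 pairs was over 0.1. Within a slide, what remained of the signals after removal of the group means correlated at -0.13 (consensus). Slides and groups largely coincide, so this value says little about a slide effect. No fixed slide block could be fitted for comparisons with TBI.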
